A study of Mus musculus with 12 samples.

Results

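The transcripts of 10 cardiac transcription factors were followed in mouse ventricles: Gata4, Gata6, Nkx2-5, Tbx5, Tbx20, Hand2, Mef2a, Mef2c, Mef2d and Srf. They were taken by gene symbol from the 55421 genes of the count table, without use of their values, and all 10 were present and passed the filter on low counts. Ventricular RNA was sequenced from 3 groups with 4 libraries each, all from wild-type mice. Mice of the saline group were given saline with vehicle. Those of the AngII group were given angiotensin II (Ang II), a pressor hormone that drives cardiac hypertrophy, from an osmotic minipump placed under the skin on day 0, and vehicle. Those of the AngII_FI group had the same kind of pump and were injected with Forsythoside I (FI), a phenylethanoid glycoside, into the peritoneum at 50 mg/kg, on alternate days from the day before the pump until day 14. Mice with FI but no angiotensin II were not analysed here. The angiotensin II dose, the age and the sex of the mice are not given in the labels.

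Total counts were 68874852 to 80624227 per library. Levels are given as CPM, counts relative to the library total after scaling by the trimmed mean of M-values (TMM). The 10 cardiomyocyte markers summed to 30054 to 43794 CPM, and the 4 atrial markers to 0.853 to 2.61 CPM in every library. One library stood apart: AngII_FI 3 held 22071 CPM on 12 hepatocyte markers, against 3.37 to 43.2 CPM in the other 11 libraries. In AngII_FI 3, 436 genes lay at least 2.5 times above the next highest library, against 0 to 2 genes in each other library. None of the 10 factors was among those 436 genes, and the plot of fold changes shows each of them with and without AngII_FI 3.

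These factors form the core regulatory network of the heart muscle cell. GATA4 and GATA6 are zinc-finger proteins, NKX2-5 is a homeodomain protein, TBX5 and TBX20 carry a T-box and HAND2 is a basic helix-loop-helix protein. They bind enhancers and promoters of sarcomere, ion channel and natriuretic peptide genes, often together, and patients or mice with reduced dosage of several of them have heart malformations. MEF2 proteins and SRF share the MADS domain. MEF2 proteins are held inactive by class II histone deacetylases until calcium signalling removes these, and SRF binds the CArG box with partners such as myocardin. Their activity in hypertrophy is known to be set largely after transcription, by phosphorylation, cofactors and nuclear export, which transcript counts do not measure.

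Promoter sequences of genes that the factors are known to control are shown first, since the target genes are described later. The sequences are from RefSeq (GRCm38.p6), 250 bases upstream of the annotated start, 5′ to 3′ on the strand of the gene, and capitals mark matches to the motifs searched. The motifs were AGATAA or TGATAA for GATA factors, TNAAGTG for NKX2-5, AGGTGTNA for T-box factors, and the MEF2 and CArG consensus by name, each on both strands. Nppa (chr4:148000472-148000721, plus strand), the gene of atrial natriuretic peptide, is shown because it rose with angiotensin II and its window held a T-box match, an NKX2-5 match and a GATA match, in that order.
Nppa: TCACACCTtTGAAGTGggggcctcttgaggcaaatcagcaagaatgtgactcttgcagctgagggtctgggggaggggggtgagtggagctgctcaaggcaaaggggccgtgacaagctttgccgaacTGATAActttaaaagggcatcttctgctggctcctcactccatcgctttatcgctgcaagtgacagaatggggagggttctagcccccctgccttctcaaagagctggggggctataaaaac
For Nppb, the gene of brain natriuretic peptide, only a stretch with a pair of GATA matches is shown (chr4:147985801-147985825, plus strand). In the GENCODE M21 gene models, 112 of the 250 bases of its window lie in an exon of Nppb, so these matches may lie inside that exon.
Nppb: cagcTGATAAatcagAGATAAcccc
Acta1 (chr8:123894776-123895025, minus strand), the skeletal alpha-actin gene, is shown for its CArG match.
Acta1: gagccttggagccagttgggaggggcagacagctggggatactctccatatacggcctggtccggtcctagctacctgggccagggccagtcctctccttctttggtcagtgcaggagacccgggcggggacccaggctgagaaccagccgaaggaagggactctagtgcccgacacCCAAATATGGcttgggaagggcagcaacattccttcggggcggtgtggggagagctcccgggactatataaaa
Xirp2 (chr2:67445752-67446001, plus strand), which encodes an actin-binding protein of the intercalated disc, is shown for its MEF2 match.
Xirp2: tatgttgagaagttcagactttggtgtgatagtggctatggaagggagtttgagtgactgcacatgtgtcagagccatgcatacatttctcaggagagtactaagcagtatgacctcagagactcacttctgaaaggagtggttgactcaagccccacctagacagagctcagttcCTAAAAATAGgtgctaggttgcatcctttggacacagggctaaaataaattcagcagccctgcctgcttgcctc
Srf itself (chr17:46556163-46556412, minus strand) is shown as the factor whose own window held 2 CArG matches, beginning 82 and 62 bases upstream of the start.
Srf: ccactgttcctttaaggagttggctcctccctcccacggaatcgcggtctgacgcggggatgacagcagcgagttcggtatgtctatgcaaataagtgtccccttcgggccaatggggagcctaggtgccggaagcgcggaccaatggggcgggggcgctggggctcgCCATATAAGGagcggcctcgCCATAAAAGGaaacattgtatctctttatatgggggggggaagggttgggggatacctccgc

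A match describes letters in a window and is neither a binding site nor a cause. The printed windows were chosen for their matches. Among the other target windows searched, those of Myh6, Chrm2, Tpm2, Cnn1 and Smtn held 0 matches to any of the motifs. That of Actc1 held a CArG match. Chrm2, Tpm2, Cnn1 and Smtn are among the targets called in AngII against saline below. Of 32851 RefSeq windows of this length, 16.6% held a GATA match, 10.1% an NKX2-5 match, 2.68% a T-box match, 0.508% a MEF2 match and 1.47% a CArG match. Windows were found for 7 of the 10 factors (9 windows), and those of Gata4, Gata6 and Tbx5 are named only. Among these 7 factors, a GATA match occurred in 1 (Hand2, beginning 215 and 172 bases upstream), a CArG match in 1 (Srf) and the other motifs in 0.

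Tbx5 was the factor that differed most clearly between groups: its transcripts were lower in both groups given angiotensin II, at 0.663 times the saline level with angiotensin II and 0.612 times with angiotensin II and FI in the fit. In AngII against saline, 0 of the 10 factors passed the threshold (edgeR's quasi-likelihood test, adjusted p under 0.05), where 2.23% of the 17376 genes tested did. Of the 10, 3 had an unadjusted p under 0.05 (Tbx5, Gata4 and Mef2c), against 16.8% of all genes, and DESeq2 and limma-voom each called 1 (Tbx5). Shares of all genes, here and below, are those of edgeR. DESeq2 called more of all genes than edgeR in each comparison, with its totals in the closing section. The totals of limma-voom are not given. The log2 fold changes of 9 of the 10 lay below 0, with a median of -0.17, against 49.4% of all genes and a median of 0.00465. Against saline, AngII_FI had 1 of the 10 lower, Tbx5, where 0.978% of all genes were called in either direction and 0.259% fell. Here 8 of the 10 lay below 0, with a median of -0.19, against 46.6% and 0.02 for all genes. The AngII and AngII_FI groups were compared with the same 4 saline libraries, so these values are not independent of each other. In AngII_FI against AngII, 0 of the 10 passed, as did 0% of the genes tested by edgeR. At an unadjusted p under 0.05, 0 of the 10 and 9.95% of all genes passed, and DESeq2 and limma-voom also called 0 of the 10. The median of the 10 was 0.00287 in that comparison, with 5 below 0, where 46.9% of all genes were.

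**Figure D1:**
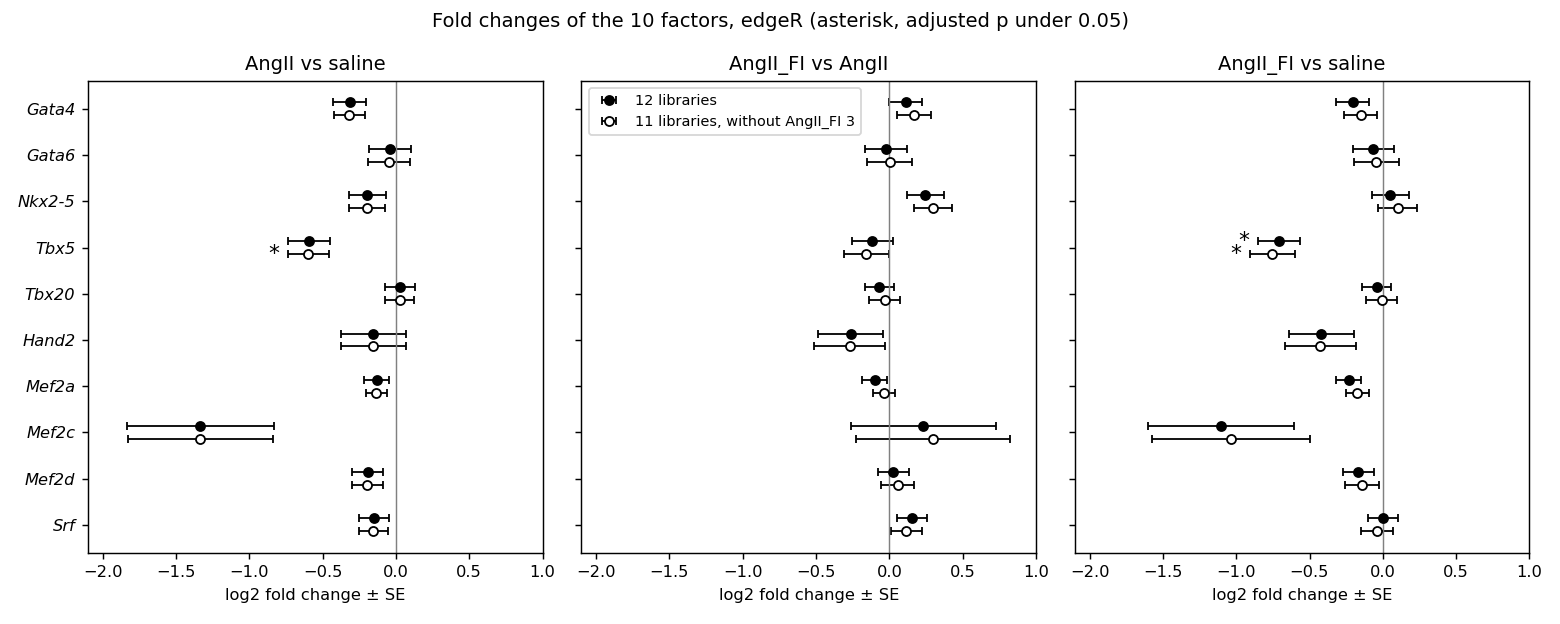
Log2 fold change (x axis, edgeR, with standard error) of each of the 10 factors in the 3 comparisons. Filled points are from all 12 libraries, open points from the 11 without AngII_FI 3, and an asterisk marks an adjusted p under 0.05. Tbx5 carries the only asterisks, and Mef2c has the widest error bars.

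The shared position below 0 moved with single saline libraries and with the scale. Saline 4 held the highest saline value of 8 of the 10 factors and also the highest cardiomyocyte marker sum of all libraries, 43794 CPM. Saline 1 held the lowest saline value of 6 of the 10. Without saline 4, the median of the 10 in AngII against saline was -0.09 with 7 below 0, and in AngII_FI against saline it was -0.11 with 7 below 0. Without saline 1, the medians were -0.25 with 9 below 0 and -0.20 with 10 below 0. Each factor was also counted per 10000 counts of the cardiomyocyte markers, a scale chosen after seeing the data. Of these markers, Myh6, Tnnt2, Tnni3, Actc1, Ryr2 and Myl2 are also on the list of GATA4, NKX2-5 and TBX5 targets described below. The scale is therefore not independent of genes these factors control, and a shift shared by both would cancel. Within a comparison this scale moves the log2 difference of every gene by the same amount. The place of the factors relative to other genes is therefore unchanged by it. On that scale 5 of the 10 lay below 0 in AngII against saline, and the groups overlapped for all 10. The median log2 difference was 0.000871, against -0.16 from the mean log2 CPM. In AngII_FI against saline 9 of the 10 lay below 0, with a median of -0.20, and in AngII_FI against AngII 8 of the 10, with a median of -0.18. From the mean log2 CPM, 8 and 5 of the 10 lay below 0 in these comparisons, with medians of -0.18 and 0.00130. The share of all genes below 0 per marker count was not counted. In bulk tissue, fewer cells of a type and less RNA per cell cannot be told apart.

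Levels were compared between genes per length, as CPM per kilobase of exon, averaged over the 12 libraries. Nkx2-5 was the highest at 21.3, followed by Srf at 18.6, Gata4 at 18.4, Hand2 at 14.8 and Mef2d at 12.8. Mef2a was at 7.95, Tbx20 at 5.73, Gata6 at 5.63, Tbx5 at 2.22 and Mef2c at 0.543. The ranges over the 12 libraries separated neighbours in this order at 2 places, between Mef2d and Mef2a and between Gata6 and Tbx5. Srf lay above Gata4 in 7 of 12 libraries and Tbx20 above Gata6 in 6 of 12, so these pairs did not differ beyond their spread. Mef2a lay above Tbx20, and Tbx5 above Mef2c, in all 12 libraries although the ranges overlapped.

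**Figure D2:**
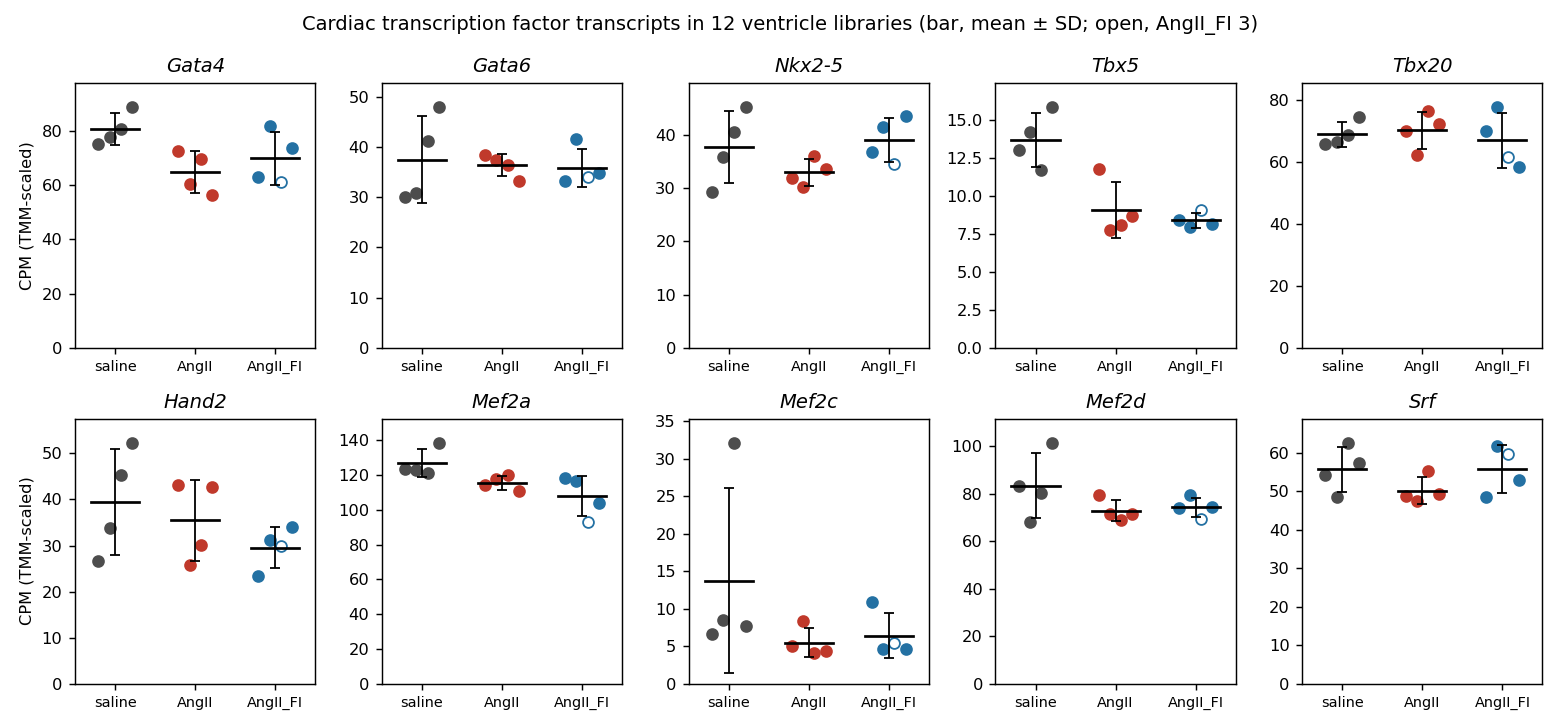
TMM-scaled CPM (y axis, from 0) of each factor in the 4 libraries of each group, with the mean and SD as a bar and the open circle for AngII_FI 3. The 4 AngII_FI values of Tbx5 lie below the 4 saline values, and Mef2c in saline 3 lies at 32.1 CPM, far above the other saline libraries.

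TBX5 and TBX20 share the T-box DNA-binding domain. TBX5 activates Nppa, Gja5 and other genes together with NKX2-5 and GATA4, and TBX20 maintains the adult ventricular programme. Tbx5 (ENSMUSG00000018263, GRCm38 chromosome 5, 119832668 to 119885219, plus strand) measured 13.0, 14.2, 11.7 and 15.9 CPM in saline 1 to 4. Its AngII values were 11.8, 7.75, 8.08 and 8.67 CPM, and its AngII_FI values 8.39, 7.92, 9.05 and 8.14 CPM. All 4 AngII_FI libraries lay below all 4 saline libraries, as one group did below the other for 4.3% of all genes tested. AngII 1 lay just above saline 3, so the AngII and saline groups overlapped through that pair. The group means were 13.7 ± 1.76, 9.07 ± 1.85 and 8.38 ± 0.487 CPM (SD, n = 4 each).

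The log2 fold change of Tbx5 in AngII_FI against saline was -0.71 ± 0.14 (SE, edgeR adjusted p = 0.0406). Without AngII_FI 3 it was -0.75 ± 0.15 (edgeR adjusted p = 0.0353), in a fit that called 1.24% of all genes. In AngII against saline it was -0.59 ± 0.14 (edgeR adjusted p = 0.0516), just outside the threshold. Without AngII_FI 3, whose counts enter the shared estimate of spread, it was -0.60 ± 0.14 and passed (edgeR adjusted p = 0.0368), in a fit that called 3.86% of all genes. AngII_FI against AngII gave -0.12 ± 0.14 (edgeR adjusted p = 0.836), with an interval of 2 SE from -0.40 to 0.17.

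Tbx5 stayed below its saline level in every setting tried, and its place beside the threshold varied. With each of the 12 libraries left out in turn, AngII against saline ran from -0.74 to -0.51 and passed in 2 of 12 fits, without AngII 1 (-0.74, edgeR adjusted p = 0.0156) and without AngII_FI 3. AngII_FI against saline ran from -0.78 to -0.63 and kept its call in 2 of 12, again without AngII 1 and without AngII_FI 3, with edgeR adjusted p-values of 0.0163 to 0.114. Of 8 other settings, 3 called Tbx5 in AngII against saline and 4 in AngII_FI against saline. DESeq2 gave an adjusted p of 0.0057 and limma-voom of 0.0394 for AngII against saline.

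**Figure D3:**
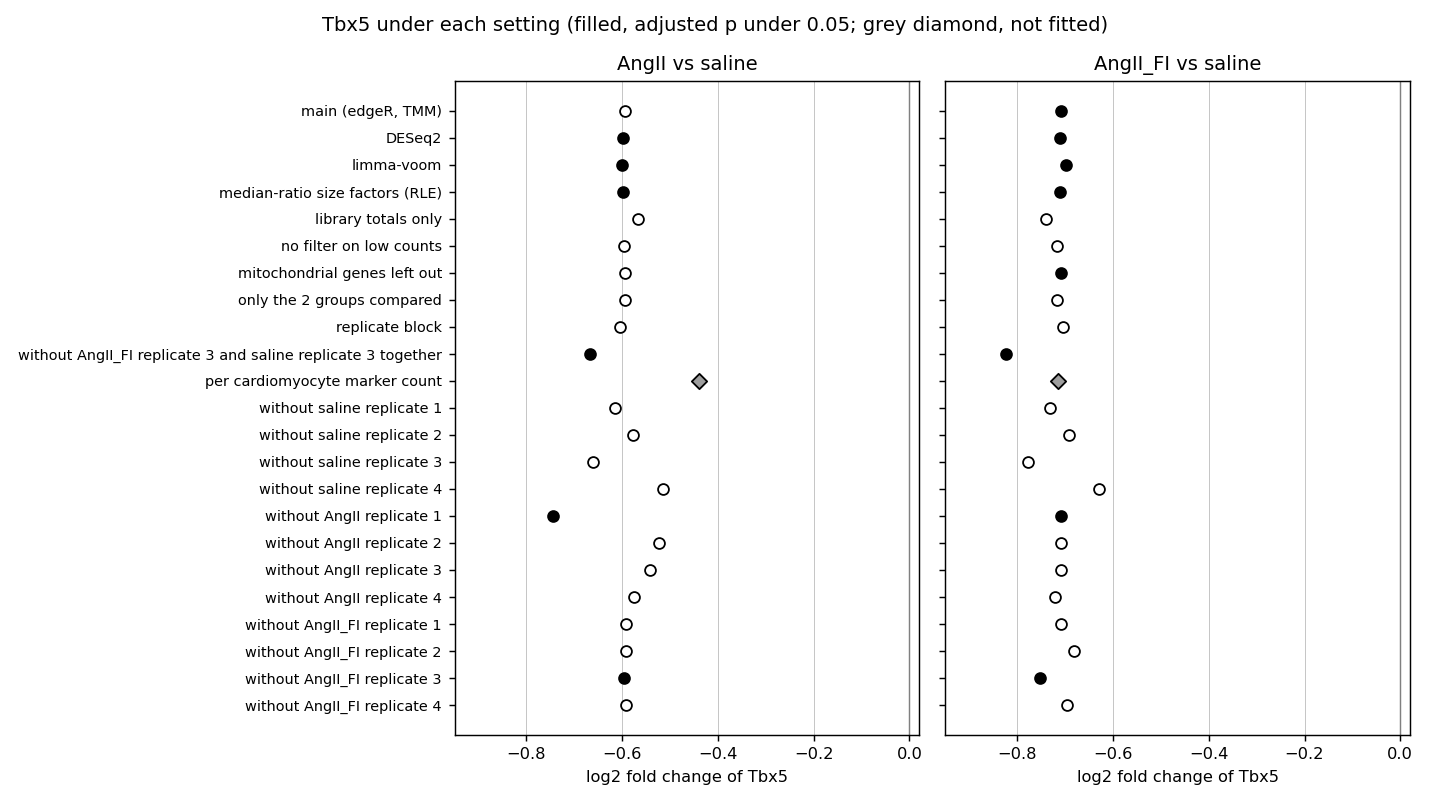
Log2 fold change of Tbx5 (x axis) in AngII and in AngII_FI against saline under each setting (y axis), filled where the adjusted p is under 0.05. Grey diamonds are mean log2 differences per cardiomyocyte marker count, which were not fitted, at -0.44 and -0.71. The fitted points lie between -0.82 and -0.51, and filled and open ones are mixed.

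Tbx20 (ENSMUSG00000031965, chromosome 9, 24718138 to 24774303, minus strand) stayed close to its saline level. It measured 65.9, 66.4, 68.9 and 74.7 CPM in saline 1 to 4. AngII libraries held 70.3, 62.2, 76.4 and 72.2 CPM, and AngII_FI libraries 70.1, 78.0, 61.6 and 58.5 CPM. The groups overlapped throughout, with a log2 fold change of 0.03 ± 0.10 in AngII against saline, an interval of 2 SE from -0.17 to 0.23. AngII_FI against AngII gave -0.07 ± 0.10. Per length, Tbx5 made up 33.7% (30.3% to 35.4%) of the summed level of Tbx5 and Tbx20 in saline. The share was 24.8% (21.3% to 30.1%) in AngII and 24.5% (20.7% to 27.4%) in AngII_FI, and every library of either group given angiotensin II lay below every saline library. The highest AngII share, 30.1%, and the lowest saline share, 30.3%, nearly met. How often such ratios of other genes separate was not counted.

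GATA4 is a transcription factor that mediates the hypertrophic response and binds the natriuretic peptide promoters, and GATA6 overlaps with it in function. Gata4 (ENSMUSG00000021944, chromosome 14, 63198922 to 63271692, minus strand) measured 75.2, 77.9, 80.6 and 89.0 CPM in saline 1 to 4. In AngII 1 to 4 it measured 72.6, 60.6, 69.8 and 56.3 CPM, and in AngII_FI 1 to 4 it measured 62.9, 81.9, 61.3 and 73.9 CPM. All 4 AngII values lay below all 4 saline values, as one group did below the other for 6.11% of all genes tested. On CPM without TMM scaling the groups overlapped. Per 10000 cardiomyocyte marker counts they overlapped too, at 16.2 to 22.3 in AngII and 20.3 to 25.3 in saline, with a log2 difference of -0.16 against -0.32 from the mean log2 CPM. The AngII_FI values on that scale, 18.2 to 19.5, lay below the saline values, and the share of all genes that did so was not counted. The log2 fold change of Gata4 was -0.32 ± 0.11 in AngII against saline and did not pass (edgeR adjusted p = 0.171, 0.104 to 0.382 over the alternatives). AngII_FI against AngII gave 0.11 ± 0.11 and AngII_FI against saline -0.21 ± 0.11, with overlapping groups on CPM in both.

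Gata6 (ENSMUSG00000005836) showed no separation between groups. Its saline values were 30.0, 30.9, 41.2 and 48.1 CPM, its AngII values 38.5, 37.5, 36.4 and 33.3 CPM and its AngII_FI values 33.2, 41.5, 34.1 and 34.8 CPM. The widest spread was within saline, where saline 3 and 4 lay above saline 1 and 2. The log2 fold change was -0.04 ± 0.14 in AngII against saline, with an interval of 2 SE from -0.33 to 0.24, and -0.02 ± 0.14 in AngII_FI against AngII. Of the summed level of Gata4 and Gata6 per length, Gata6 made up 21.6% ± 2.74 in saline, 25.3% ± 1.58 in AngII and 23.6% ± 1.25 in AngII_FI (SD, n = 4 each). The gene 1010001N08Rik, on the opposite strand, shares 93 exon bases or 1.43% of Gata6 and was at 4.26 to 4.38 CPM in the group means.

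NKX2-5 marks the cardiac lineage and in the adult maintains conduction and contractile genes. Nkx2-5 (ENSMUSG00000015579, chromosome 17, 26838664 to 26845009, minus strand) measured 29.4, 35.8, 40.6 and 45.3 CPM in saline 1 to 4. In AngII 1 to 4 it measured 31.8, 30.3, 36.1 and 33.7 CPM, all inside the saline range. AngII_FI 1 to 4 held 36.8, 41.4, 34.6 and 43.6 CPM, and only AngII_FI 3 reached down into the AngII range. This factor had the smallest p of the 10 in AngII_FI against AngII, with a log2 fold change of 0.25 ± 0.13 that did not pass (edgeR adjusted p = 0.545). Without AngII_FI 3 it was 0.30 ± 0.13 (edgeR adjusted p = 0.611), and the groups no longer overlapped, with the AngII_FI values higher, as for 4.32% of all genes in that fit. Its fold change from saline to AngII_FI was 0.05 ± 0.13 on the log2 scale.

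The AngII_FI libraries with high Nkx2-5 were also those with high cardiomyocyte marker sums, 42030 CPM in AngII_FI 2 and 40647 CPM in AngII_FI 4. Counted per 10000 cardiomyocyte marker counts, Nkx2-5 was at 10.3 ± 1.55 in saline, 10.1 ± 0.576 in AngII and 10.6 ± 0.597 in AngII_FI (SD, n = 4 each). Its log2 difference between AngII_FI and AngII was then 0.06. Tbx5 on this scale was at 3.76 ± 0.593 in saline, 2.79 ± 0.562 in AngII and 2.30 ± 0.423 in AngII_FI. The 4 AngII_FI values of Tbx5 (1.89 to 2.75) remained below the 4 saline values (3.22 to 4.61), with a log2 difference of -0.71, against -0.70 from the mean log2 CPM. The share of all genes that separate on this scale was not counted. Between AngII (2.46 to 3.63) and saline the groups of Tbx5 overlapped, and the log2 difference was -0.44, against -0.60 from the mean log2 CPM.

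HAND2 acts in heart morphogenesis and in the adult heart is found in muscle cells and in fibroblasts. Hand2 (ENSMUSG00000038193, chromosome 8, 57320983 to 57324633, plus strand) measured 26.6, 33.8, 45.3 and 52.3 CPM in saline 1 to 4. The AngII values were 43.2, 25.8, 30.2 and 42.7 CPM and the AngII_FI values 23.3, 31.1, 29.8 and 33.9 CPM. The saline libraries alone ran from 26.6 to 52.3 CPM, and all groups overlapped. Log2 fold changes were -0.15 ± 0.22 in AngII against saline, -0.26 ± 0.22 in AngII_FI against AngII and -0.42 ± 0.22 in AngII_FI against saline (edgeR adjusted p = 0.365 for the last). Hand2os1, a transcript of the opposite strand, shares 461 exon bases or 19.6% of the exon bases of Hand2, and how reads there were counted is not given. It was at 44.5 ± 4.26, 45.1 ± 5.98 and 42.4 ± 5.23 CPM in the 3 groups, with a log2 fold change of 0.02 ± 0.12 in AngII against saline.

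MEF2A and MEF2D are the main MEF2 proteins of adult heart muscle, and MEF2C is needed early in heart formation. Mef2a (ENSMUSG00000030557, chromosome 7, 67231163 to 67372858, minus strand) measured 124, 123, 121 and 139 CPM in saline 1 to 4. In AngII it measured 114, 118, 120 and 111 CPM, and in AngII_FI 118, 116, 93.1 and 104 CPM. Every library given angiotensin II lay below every saline library, although AngII 3 at 120 and saline 3 at 121 CPM nearly met. In AngII against saline the log2 fold change was -0.13 ± 0.08 (edgeR adjusted p = 0.489), and on unscaled CPM those groups overlapped. On TMM-scaled CPM, 6.11% of all genes had the AngII group below the saline group. From saline to AngII_FI it was -0.23 ± 0.08 (edgeR adjusted p = 0.186), with groups apart on both scales, as one group lay below the other for 4.3% of all genes. Per 10000 cardiomyocyte marker counts Mef2a overlapped in both comparisons, at 31.7 to 40.1 in saline, 31.9 to 39.1 in AngII and 25.6 to 36.2 in AngII_FI. Lysmd4, on the opposite strand, shares 302 exon bases or 2.06% of Mef2a and was at 8.10 to 10.9 CPM in the group means. Gm44667 and Gm44668 lie in the span of Mef2a and share no exon base with it.

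Mef2c (ENSMUSG00000005583, chromosome 13, 83504034 to 83667080, plus strand) was low in every library but 1. Its saline values were 6.63, 8.50, 32.1 and 7.68 CPM, its AngII values 5.01, 8.28, 4.11 and 4.40 CPM and its AngII_FI values 10.9, 4.57, 5.45 and 4.64 CPM. Saline 3 lay 2.94 times above the next highest of the 12 libraries. The log2 fold change of -1.33 ± 0.50 in AngII against saline (edgeR adjusted p = 0.196) became -0.48 without saline 3 (edgeR adjusted p = 0.557). Likewise -1.10 ± 0.50 in AngII_FI against saline became -0.25 without that library. Why saline 3 was high was not tested.

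Mef2d (ENSMUSG00000001419, chromosome 3, 88142372 to 88172086, plus strand) measured 83.4, 68.1, 80.4 and 101.5 CPM in saline 1 to 4. The AngII values were 79.6, 71.3, 69.1 and 71.6 CPM and the AngII_FI values 73.9, 79.3, 69.4 and 74.5 CPM. Values given angiotensin II all fell within the saline range, and the log2 fold changes were -0.19 ± 0.11 in AngII against saline and 0.03 ± 0.11 in AngII_FI against AngII. Of the summed MEF2 level per length, Mef2d made up 59.2%, 59.6% and 61.6% in saline, AngII and AngII_FI, Mef2a 37.1%, 38.6% and 36.4%, and Mef2c 3.74%, 1.70% and 2.01%. The antisense gene 1700113A16Rik shares 531 exon bases, 8.87% of Mef2d, and was below 1 CPM in all libraries.

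SRF controls actin, smooth muscle and immediate early genes. Srf (ENSMUSG00000015605, chromosome 17, 46548329 to 46556175, minus strand) measured 54.3, 48.5, 62.7 and 57.4 CPM in saline 1 to 4. In AngII it measured 48.8, 47.4, 55.3 and 49.4 CPM and in AngII_FI 48.6, 61.8, 59.8 and 52.9 CPM. The groups overlapped in every comparison, with AngII 2 just below the lowest saline value and the other AngII libraries inside the saline range. Its log2 fold change was -0.15 ± 0.10 in AngII against saline, 0.15 ± 0.10 in AngII_FI against AngII and 0.00160 ± 0.10 in AngII_FI against saline. The interval of 2 SE of the last was -0.20 to 0.20. Gm26904 and Mir6976 overlap the span of Srf and share no exon base with it. Its CArG-bearing promoter window is the one printed above.

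Of the 16 other GATA, NK2, T-box, HAND and MEF2 genes, 8 passed the filter on low counts and 0 passed the test in any comparison (edgeR). At an unadjusted p under 0.05 there were 1, 0 and 2 in AngII against saline, AngII_FI against AngII and AngII_FI against saline. DESeq2 called 1, 0 and 1, and limma-voom 0 in each. Of all genes, 16.8% had an unadjusted p under 0.05 in AngII against saline and 9.95% in AngII_FI against AngII. That share was not counted for AngII_FI against saline. Tbx15, a T-box gene of the mesenchyme, had the smallest p in both comparisons with saline. Its level was 0.211 ± 0.159 CPM in saline, 1.08 ± 0.33 in AngII and 1.21 ± 0.551 in AngII_FI, with a log2 fold change of 2.35 ± 0.71 in AngII (edgeR adjusted p = 0.111). Eomes, a T-box gene of lymphocytes, had the smallest p in AngII_FI against AngII, at 0.122 ± 0.0836 and 0.0132 ± 0.0265 CPM (edgeR adjusted p = 0.511). Hand1, the partner of Hand2 in development, reached at most 4 counts in a library and was not tested.

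The 30 cofactors of these proteins were all tested, and 0 passed in AngII against saline by edgeR, against 1 higher and 1 lower by DESeq2 and 0 by limma-voom. At an unadjusted p under 0.05 there were 7, against 16.8% of all genes. Hopx, a homeodomain protein without DNA binding that restrains SRF, had the smallest p. It went from 190 ± 5.43 CPM in saline to 142 ± 14.6 in AngII and 134 ± 19.1 in AngII_FI. The log2 fold change of Hopx was -0.42 ± 0.11 in AngII (edgeR adjusted p = 0.0598, and 0.0157 without AngII_FI 3). Hopx fell in AngII_FI against saline by 0.50 ± 0.11 on the log2 scale (edgeR adjusted p = 0.0484). Csrp3, the muscle LIM protein that acts with GATA4 and SRF, rose by 0.70 ± 0.15 there (edgeR adjusted p = 0.0455, and 0.0578 without AngII_FI 3). These were the 2 cofactors called, 1 in each direction, where 0.978% of all genes were called. Without AngII_FI 3, AngII against saline also had 1 cofactor lower (Hopx) and 1 higher, Ankrd1, a stretch-responsive ankyrin repeat protein (0.97 ± 0.23, edgeR adjusted p = 0.0403), named after its value was seen. That fit called 3.86% of all genes.

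Between AngII_FI and AngII, 0 of the 30 cofactors passed by edgeR, DESeq2 or limma-voom. With an unadjusted p under 0.05 there were 5, against 9.95% of all genes. Mrtfa, an actin-regulated coactivator of SRF, had the smallest p with a log2 fold change of -0.50 ± 0.12 (edgeR adjusted p = 0.411). Myocd, which encodes myocardin, was at 11.6 ± 1.55, 13.7 ± 0.892 and 14.3 ± 2.44 CPM in saline, AngII and AngII_FI. Zfpm2, the FOG2 partner of GATA4, was at 14.6 ± 1.04, 12.4 ± 1.06 and 11.9 ± 1.33 CPM. Neither passed in any comparison.

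Of 19 textbook targets of GATA4, NKX2-5 and TBX5, 2 rose and 1 fell in AngII against saline (edgeR), where 2.23% of all genes were called, and DESeq2 called 2 higher and 2 lower. Of the 19, 13 lay below 0, with a median of -0.18 against 0.00465 for all genes. Nppa rose from 111 ± 17.1 to 302 ± 27.5 CPM, by 1.44 ± 0.13 on the log2 scale (edgeR adjusted p = 7.16e-04). Nppb rose from 101 ± 26.4 to 281 ± 82.3 CPM, by 1.47 ± 0.23 (edgeR adjusted p = 0.0111). Chrm2, the muscarinic receptor of heart muscle, fell by 0.43 ± 0.08 (edgeR adjusted p = 0.0267). Without AngII_FI 3, Gja1, the connexin 43 gene, was lower too (-0.49 ± 0.11, edgeR adjusted p = 0.0323) and is named after its value was seen. Myh6, the adult myosin heavy chain, had a log2 fold change of -0.18 ± 0.17 and did not pass. In the same comparison the transcripts of Gata4, Nkx2-5 and Tbx5 had log2 fold changes of -0.32, -0.20 and -0.59. None of these passed (edgeR adjusted p = 0.171, 0.500 and 0.0516). A link between the factor transcripts, the promoter matches and the targets was not tested.

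Between AngII_FI and AngII, 0 of these 19 targets passed by edgeR, DESeq2 or limma-voom. With an unadjusted p under 0.05 there were 4, against 9.95% of all genes. The log2 fold changes of 18 of 19 lay above 0, with a median of 0.15, against 53.1% and 0.02 for all genes. Without AngII_FI 3 the median was 0.21, again with 18 above 0. Nppb had the smallest p, at 491 ± 68.9 CPM in AngII_FI (log2 fold change 0.80 ± 0.22, edgeR adjusted p = 0.411). Myh6 had 0.33 ± 0.17. Many of these targets are cardiomyocyte genes, and the cardiomyocyte marker sum was 32564 ± 1937 CPM in AngII and 37052 ± 4983 CPM in AngII_FI. The part of the marker sum in these values was not tested. Nppa and Nppb rose in AngII_FI against saline, by 1.73 ± 0.13 and 2.27 ± 0.23, and 0 fell, where DESeq2 called 1 lower and limma-voom 0. Of all genes, edgeR called 0.978% in that comparison.

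Of 13 textbook MEF2 targets, 1 rose and 0 fell in AngII against saline, with a median of -0.10, and DESeq2 called 1 lower as well. Xirp2 rose from 177 ± 33.8 to 347 ± 96.7 CPM, by 0.97 ± 0.18 (edgeR adjusted p = 0.0214), and in AngII_FI against saline by 1.23 ± 0.18. It was the 1 MEF2 target called by edgeR in each of these comparisons, where DESeq2 called 2 higher in the second. Of all genes, edgeR called 2.23% in AngII against saline and 0.978% in AngII_FI against saline. In AngII_FI against AngII 0 of the 13 passed by any of the tools and 0 had an unadjusted p under 0.05, where 9.95% of all genes did. Mb, the myoglobin gene, had the smallest p there (log2 fold change 0.49 ± 0.26, edgeR adjusted p = 0.567, and 0.68 on the log2 scale without AngII_FI 3).

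Of 29 textbook SRF targets, 4 rose and 1 fell in AngII against saline by edgeR, with a median of 0.09, where 2.23% of all genes were called. By DESeq2 9 were higher and 1 lower, by limma-voom 5 and 1. The 2.23% is the share called by edgeR, and DESeq2 called more of all genes in this comparison. Without AngII_FI 3, edgeR called 5 higher, among them Flna, the filamin A gene (0.50 ± 0.12, edgeR adjusted p = 0.0369), named after its value was seen. That fit called 3.86% of all genes. Nppa, which is on this list too, was joined by Acta1, from 215 ± 108 to 683 ± 176 CPM (1.67 ± 0.32, edgeR adjusted p = 0.0228). Tpm2, the beta-tropomyosin, rose by 0.54 ± 0.10 and Cnn1, the calponin of smooth muscle, by 1.33 ± 0.27. Smtn, another smooth muscle gene, fell by 0.39 ± 0.08 and is named after its value was seen. Acta2, the smooth muscle alpha-actin, had a log2 fold change of -0.31 ± 0.22 and did not pass. Between AngII_FI and AngII, 0 of the 29 passed by edgeR or limma-voom and 1 by DESeq2. With an unadjusted p under 0.05 there were 7, against 9.95% of all genes. Of the 29, 16 lay above 0 with a median of 0.01, and without AngII_FI 3 there were 11 above 0 with a median of -0.08. Myl9, a smooth muscle myosin light chain, had the smallest p (-0.48 ± 0.10, edgeR adjusted p = 0.411). In AngII_FI against saline 3 rose, Nppa, Acta1 by 1.77 ± 0.32 and Tpm2 by 0.50 ± 0.10, and Tpm2 lost its call without AngII_FI 3 (edgeR adjusted p = 0.0578). By DESeq2 4 were higher and 2 lower there, by limma-voom 2 and 0. Of all genes, edgeR called 0.978% in that comparison.

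The 10 smooth muscle and pericyte markers summed to 982 to 1150 CPM in saline, 1163 to 1169 in AngII and 882 to 1109 in AngII_FI, so that the AngII libraries lay above those of both other groups. This list shares 4 genes with the SRF targets (Myh11, Acta2, Tagln and Cnn1). Its other 6 genes summed to 857 to 1007, 998 to 1045 and 741 to 1011 CPM, and the groups overlapped. The part of these cells in the SRF target values was not tested.

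**Figure D4:**
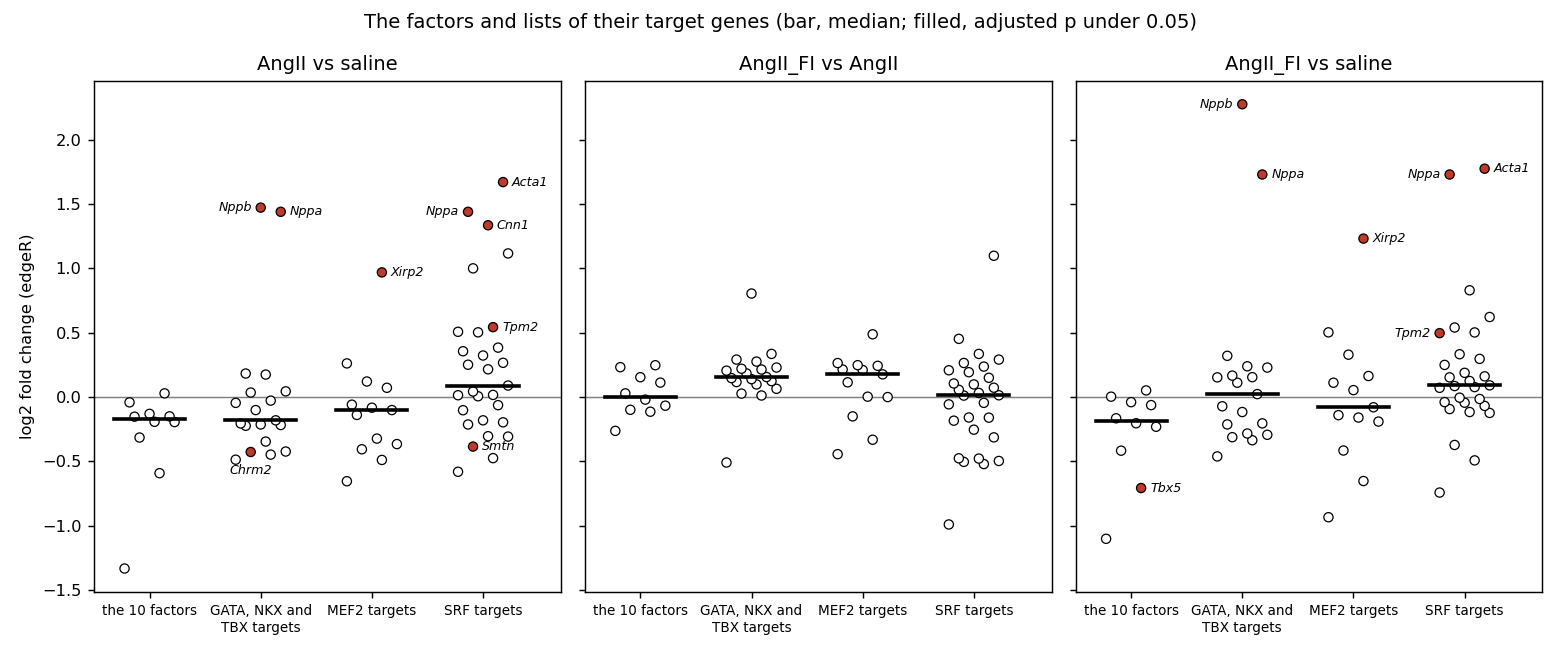
Log2 fold changes (y axis, edgeR) of the 10 factors and of the tested genes on 3 lists of target genes, with a bar at each median and filled points at an adjusted p under 0.05. In AngII against saline the called targets Nppa, Nppb, Acta1, Xirp2 and Cnn1 lie between 0.97 and 1.67, and Tpm2, Chrm2 and Smtn between -0.43 and 0.54. Of the 10 factors, 9 lie below 0 and 0 are called there.

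Genes whose pattern was most like Tbx5 were sought among 12082 protein-coding genes, by the root-mean-square difference of centred log2 CPM over the 11 libraries other than AngII_FI 3. They were Lrrc15 at 0.135, Acads, a mitochondrial acyl-CoA dehydrogenase, at 0.138 and Carns1, the carnosine synthase, at 0.148, where Tbx5 itself varied by 0.366 around its mean. Lrrc15 was at 27.0 ± 2.53, 18.2 ± 2.78 and 18.0 ± 1.66 CPM in saline, AngII and AngII_FI. Carns1 was at 29.1 ± 4.47, 16.3 ± 2.41 and 16.4 ± 1.55 CPM. For Nkx2-5 the 3 were Arl2 at 0.0590, Akr7a5 at 0.0766 and Pnpla2, a triglyceride lipase, at 0.0797, where Nkx2-5 varied by 0.201. These are descriptions over libraries that share their groups and scaling.

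Summed markers of other cells differed between the groups. The 10 fibroblast markers summed to 1749 to 2246 CPM in saline, 2354 to 2475 in AngII and 2026 to 2347 in AngII_FI. The 10 endothelial markers summed to 1040 to 1376, 1482 to 1630 and 1148 to 1588 CPM. Macrophage markers, again 10, summed to 342 to 448, 543 to 632 and 473 to 620 CPM. For each of these lists, and for the smooth muscle and pericyte markers given above, the AngII libraries all lay above the saline libraries. Single markers did not all follow their sum. In AngII against saline 9 of 10 fibroblast, 8 endothelial, 8 smooth muscle and pericyte and 10 macrophage markers lay above 0. EdgeR called 5, 0, 1 and 5 of them higher, where 2.23% of all genes were called. Abundant genes weigh most in a sum, such as endothelial Fabp4, at 549 CPM in saline and 730 in AngII. Beyond the values per cardiomyocyte marker count, the part of these cells in the levels of the 10 factors was not tested.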

How the data were processed

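The 12 RNA sequencing libraries of wild-type mouse ventricles were grouped by the treatment label. The labels do not tie each library to its own animal, so p-values measure only the spread between these libraries. The labels' protocols name both TRIzol and an RNeasy kit for the RNA, and libraries were made with a SMARTER mRNA kit. As deposited, the authors' file holds raw read counts, 1 column per library. HISAT, featureCounts 1.5.0-p3, DESeq 1.8.3 and GRCm38 were used per the submitters' processing notes. Which strand setting, multi-mapping rule and annotation release were used is not given, so overlapping genes are uncertain.

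The filter on low counts was filterByExpr of edgeR 4.0.16 (R 4.3.3) and the scaling TMM. The quasi-likelihood test was run in 1 fit of the 12 libraries with 3 group means, with Benjamini-Hochberg adjustment over all 17376 genes tested. Means carry the SD of 4 libraries and log2 fold changes their SE. A count of 3 equals 0.0372 to 0.0436 CPM, a floor for counting error only. Gene models and lengths came from GENCODE M21 (GRCm38), which matched 99.7% of gene IDs, and promoter windows from RefSeq (GRCm38.p6). The fit was tested on simulated counts, where it missed most 1.5-fold shifts. It found 9 of 69 such genes for AngII against saline and 11 of 71 for AngII_FI against AngII. For AngII_FI against saline it found 7 of 69. Of the 2-fold shifts it found 27 of 58, 23 of 67 and 29 of 69 in that order. For 4-fold shifts these were 52 of 73, 53 of 62 and 51 of 62. Genes left unchanged made up 0% to 7.45% of the calls. A gene that did not pass may thus still have shifted by 1.5-fold or 2-fold.

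The 10 factors, the gene lists and the tests were chosen with earlier results of these data known. All 10 factors are named. From each list, up to 4 genes with the smallest p among those past the threshold are named per comparison, or the 1 with the smallest p, and Myocd, Zfpm2, Hopx, Hand1, Nppa, Nppb, Acta1, Acta2, Myh6 and genes overlapping a factor always. For the factor with the smallest p in a comparison, the 3 protein-coding genes (mean of at least 1 CPM) with the most similar pattern are named. Alternatives were DESeq2 1.42.0, limma-voom (limma 3.58.1), other scalings and filters, a fit of only the groups compared, a replicate block and each library left out. Leaving out AngII_FI 3 and saline 3 together, and levels per cardiomyocyte marker count (Python 3.11.15), were chosen after seeing the data.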

Additional observations from a re-analysis of the deposited data

Results flagged for a closer look

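Over the 10 factors and 3 groups, 30 groups of 4 values were examined for a single value far from the other 3, and chance alone flags about 1 in 20. Mef2c in saline 3 was at 32.13 CPM, where the other saline libraries were at 6.63 to 8.50 CPM. Mef2c in AngII_FI 1 was at 10.92 CPM, where the others of its group were at 4.57 to 5.45 CPM. Mef2a in saline 4 was at 138.7 CPM, where the other saline libraries were at 121 to 124 CPM, and that library held the highest cardiomyocyte marker sum. What set these values apart was not tested.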

How the results depend on the processing

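Of the 10 factors, 1 (Tbx5) passed in AngII against saline under DESeq2, limma-voom, median-ratio size factors and without AngII_FI 3 and saline 3 together, and 0 to 1 with each library left out. In AngII_FI against saline, 0 passed with library totals only, without the filter on low counts, with only the 2 groups compared and with the replicate block, and 0 to 1 with each library left out. Over all genes, 388 were called in AngII against saline (273 higher and 115 lower, and 261 and 57 with library totals only), 1045 under DESeq2, 190 without the filter, 124 with the replicate block and 90 to 683 with a library left out. AngII_FI against AngII gave 0, 40 under DESeq2, 2 without AngII_FI 3 and saline 3, and 0 to 1 with a library left out. AngII_FI against saline gave 170, 799 under DESeq2, 64 without the filter, 48 with only the 2 groups compared, 61 with the replicate block and 41 to 220 with a library left out. The causes were not tested.

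Signs turned only for log2 fold changes that did not pass the test. Srf in AngII_FI against saline was -0.0012 under DESeq2 and under median-ratio size factors, -0.0332 with library totals only, -0.0067 without the filter, -0.005 with only the 2 groups compared and -0.0123 per cardiomyocyte marker count. In AngII_FI against AngII, Gata6 was 0.0009 without AngII_FI 3 and saline 3 together, and Mef2d -0.0335 with library totals only. Per cardiomyocyte marker count, AngII against saline gave 0.1488 for Gata6, 0.0243 for Hand2, 0.0345 for Mef2a and 0.0174 for Srf, and AngII_FI against AngII gave -0.0701 for Gata4, -0.1508 for Mef2d and -0.0297 for Srf. With a library left out, ranges that crossed 0 in AngII against saline were -0.136 to 0.0993 for Gata6, -0.0152 to 0.0819 for Tbx20 and -0.303 to 0.0118 for Hand2. In AngII_FI against AngII they were -0.0988 to 0.0147 for Gata6, -0.184 to 0.0362 for Tbx5, -0.156 to 0.505 for Mef2c and -0.0056 to 0.0716 for Mef2d. In AngII_FI against saline they were -0.158 to 0.0778 for Gata6, -0.121 to 0.0186 for Tbx20, -0.0532 to 0.15 for Nkx2-5 and -0.0596 to 0.0628 for Srf. Deviations of same-numbered libraries correlated at -0.057 to 0.105 across genes, and those of differently numbered libraries at -0.080 to 0.079. These values show no clear pairing by replicate number but cannot exclude one. The replicate block is given only as an alternative. Counting error (1 over the root of the mean count) was 1.06% to 5.00% for the 10 factors, and the coefficient of variation between libraries was above it in 30 of 30 groups. For Tbx5 in AngII_FI it was 5.81% against 4.13%, and without AngII_FI 3 2.89% against 4.25%.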
